A study of Arabidopsis thaliana with 20 samples.

Results

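Transcript levels in whole leaves of the *Arabidopsis thaliana* line bam1 were compared between 3 arrays of drought-stressed plants and 3 arrays of control plants. These 6 arrays are those titled leaf bam1 drought and leaf bam1 control, out of 20 one-colour Agilent arrays that also cover wild-type Col-0 leaves and epidermal fractions enriched for stomata. The line bam1 is a single T-DNA insertion line, homozygous for an insertion in BAM1, so that both leaf groups carry the disrupted gene. Plants are labelled as 5 weeks old, were grown with 12 h of light, and either kept watered or subjected to mild drought for 5 days. Whole leaves were taken at the end of the light period, and 1 replicate pooled the material of 5 to 8 plants. Col-0 leaves, with 3 control and 2 drought arrays from plants of the same age and treatment, are given beside the bam1 values where the genotypes are compared. Values are log2 normalised signals of a probe, and a change is the mean of the drought arrays minus the mean of the control arrays on that scale, with its standard error.

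Beta-amylases release maltose from starch, the glucose polymer that leaves store by day and use at night. BAM1 is one of the active forms in the chloroplast, is known for starch breakdown in guard cells in the light and, under osmotic stress, in mesophyll cells. In water-limited leaves, abscisic acid (ABA) binds receptors that inhibit clade A protein phosphatases, which frees SnRK2 kinases to activate transcription factors and, through them, genes for protective proteins and osmolytes. Expansion growth is known to slow early under drought, and anthocyanins often accumulate.

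The disrupted gene was inspected first. The BAM1 probe measured 6.76, 6.96 and 6.45 in the bam1 control arrays and 8.08, 7.38 and 7.83 in the bam1 drought arrays. Col-0 leaves measured 11.75, 12.33 and 10.90 under control conditions and 13.07 and 12.64 under drought. All 6 bam1 arrays thus lay below all 5 Col-0 leaf arrays, as the genotype labels state, although the position of the probe relative to the insertion was not known here. The remaining BAM1 signal was 1.04 ± 0.33 higher in the drought arrays, with no overlap between the groups (as for 37.4% of all tested probes with a value on every array), but it did not pass the limma test (adjusted p = 0.058). In Col-0 the change was 1.2 and did not pass either. Under 6 alternative settings the change in bam1 passed, 1 of them with the slide as a random block (1.17). With the slide as a fixed block it turned to -0.81 (adjusted p = 0.743), and to 1.59 (adjusted p = 0.243) when a stomatal array with a doubtful label was left out.

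Of 43603 probes, 28205 were tested, namely those well above background on all arrays of either bam1 leaf group. A feature was called where the Benjamini-Hochberg adjusted p of limma's moderated test was under 0.05 and the change at least 2-fold. Drought changed 1440 features (5.11% of those tested), 432 upwards and 1008 downwards, which belong to 1079 named loci (314 higher and 765 lower) and 143 probes without a match in the name table. Without the fold limit, 4358 probes passed, 1802 higher and 2556 lower, and the median change over all tested probes was 0.0126. For 41 of the features called higher and 96 of those called lower, the probe was not well above background on any array of the opposite group. For these a lower bound of the fold change is stated, computed with each array of the dim group raised to the lowest signal that counted as well above background there, unless its own signal was higher. Some brighter signals were also not well above background (TIP3;1, 5.11 on drought replicate 3), so these bounds are approximate. For GSTF12, LEA7, TT8, XTH33 and TIP3;1 the bound equals the measured ratio. The plot of all tested probes shows downward calls at low, middle and high signal.

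**Figure D1:**
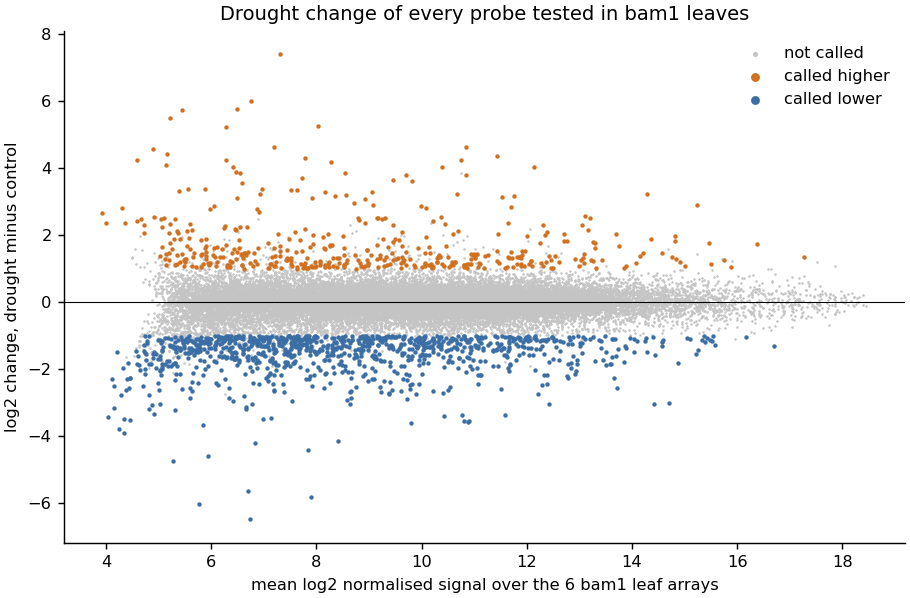
Log2 change between drought and control in bam1 leaves (y axis) against the mean log2 normalised signal over the 6 bam1 leaf arrays (x axis), 1 point for each of the 28205 probes tested. Coloured points are the 432 features called higher and the 1008 called lower, and grey points did not pass.

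The replicates within a group were closer to each other than to the other group. Correlations over the tested probes were 0.978 to 0.984 among control arrays, 0.987 to 0.992 among drought arrays and 0.961 to 0.971 between the groups, and the median standard deviation of a probe was 0.202 among control and 0.133 among drought arrays. Control replicate 2 had the highest median signal before normalisation (576, against 213 to 296 on the other 5 arrays) and the most outlier spots (304). The arrays lie on several slides, and slide 6 alone holds both bam1 leaf groups (replicate 3 of each). Between these 2 arrays, 1434 of the 1440 called features differed in the same direction and 1238 of them at least 2-fold. Both arrays were among the 6 that made the calls, so this agreement was largely fixed in advance and is no separate support. Without control replicate 2, 1502 features were called.

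With the slide as a fixed block in a fit of all 8 groups of the series, 955 features were called (308 higher and 647 lower), of which 777 were among the 1440. Of the 1440 features, 1 had the opposite sign in that fit, called there or not. One stomatal array on slide 5, which also holds bam1 control replicates 1 and 2, is labelled Col-0 but goes against that label in its BAM1 level, and without it the block left 954 calls (403 higher and 551 lower), 630 of them shared. The block kept 2 of 5 calls among late anthocyanin genes, 8 of 15 among arabinogalactan proteins and 6 of 14 among cell cycle genes, while 5 tonoplast aquaporins (2 with the stomatal array left out) and 7 drought protein genes were still called. DFR, LDOX, LEA7, TCH4 and PHI-1 lost their calls under the block. TCH4 and PHI-1 had changes of -2.52 and -3.24 there and differed by -2.93 and -3.50 within slide 6, and DFR, LDOX and LEA7, not well above background on any control array, were higher in the drought array of slide 6. The slide 6 arrays had also entered the test that made these calls.

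The 10 mesophyll markers fixed for the leaf label were well above background on all 6 arrays, with a log2 summed level of 20.68 to 20.86 in control and 20.66 to 20.77 in drought arrays. Of 15 flower and seed markers, 11 were well above background on no array, as were 5 of 14 root markers. The 11 guard cell markers summed to 15.76 to 15.82 in control and 15.38 to 15.66 in drought arrays, without overlap. Sums were taken on the linear scale, so that the guard cell sum rests mostly on TGG1 (means of 15.56 and 15.27, next KAT1 with 10.79 in control). GORK (9.9 to 10.68) and SLAC1 (8.08 to 8.37) had higher means under drought, and all other guard cell markers had lower means. The 16 epidermis and trichome markers summed to 16.49 to 16.87 and 16.85 to 17.06. The part of cell composition in the results below was not tested. In whole leaves, fewer cells of a type cannot be told apart from less RNA per cell.

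The largest increases lay in late anthocyanin synthesis, the step in which dihydroflavonols are turned into stable coloured glycosides and moved to the vacuole. Of 9 late enzymes and transport genes tested, 5 rose and none fell, where over all genes (each by its brightest probe) 1.65% rose and 3.95% fell. The median change of the 9 genes was 3.39, against 0.008 over all genes, and 3.26 when genes that were dim in one group were set at their bound. GSTF12, a glutathione S-transferase required to bring anthocyanins into the vacuole, measured 3.05, 3.59 and 4.20 in the control arrays and 11.31, 10.79 and 10.93 in the drought arrays. By this probe, which was not well above background on any control array, GSTF12 was at least 168-fold higher (adjusted p = 1.68e-05). A second GSTF12 probe was well above background on all 6 arrays and measured 8.15, 8.5 and 8.49 in control and 8.46, 8.82 and 9.0 in drought arrays, and its change of 0.38 did not pass (adjusted p = 0.13), so that the 2 probes of this gene disagree.

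UF3GT, a glycosyltransferase that adds xylose to anthocyanins, measured 4.41, 3.06 and 3.35 in control and 9.71, 9.05 and 9.34 in drought arrays, at least 50.9-fold higher (adjusted p = 2.9e-05). Dihydroflavonol reductase (DFR) went from 2.32, 2.3 and 2.81 to 8.29, 7.29 and 8.32 (adjusted p = 0.00452), and leucoanthocyanidin dioxygenase (LDOX) from 2.3, 2.73 and 2.38 to 7.21, 6.15 and 6.80 (adjusted p = 5.18e-05), at least 29.7-fold and 12.5-fold higher. Like GSTF12, none of these enzymes was well above background on any control array. The malonyltransferase 5MAT was at least 9.55-fold higher (adjusted p = 0.00885). The 4 late genes that did not pass were UGT78D2, which glucosylates anthocyanidins (change of 0.73, adjusted p = 0.0565), 3AT1, AHA10 and SCPL10 (changes between -0.95 and 0.35).

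Among 11 tested regulators of the pathway, PAP1 and TT8, a MYB and a bHLH factor that together activate the late genes, rose. PAP1 measured 9.0, 9.10 and 9.22 in control and 11.72, 11.56 and 11.61 in drought arrays, a change of 2.53 ± 0.16 (adjusted p = 3.15e-05). TT8 was not well above background in any control array and at least 5.31-fold higher under drought (adjusted p = 0.00115). LBD38, a repressor of anthocyanin synthesis, fell by 1.36. Of the 16 earlier enzymes tested, chalcone synthase CHS (2.19 ± 0.30), flavanone 3-hydroxylase F3H (1.69 ± 0.15) and flavonol synthase FLS1 (1.39 ± 0.21) rose, while the phenylpropanoid entry enzymes PAL1 to PAL4 had changes of -0.64 to -0.03 and none passed. The median over these 16 early genes was 0.

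**Figure D2:**
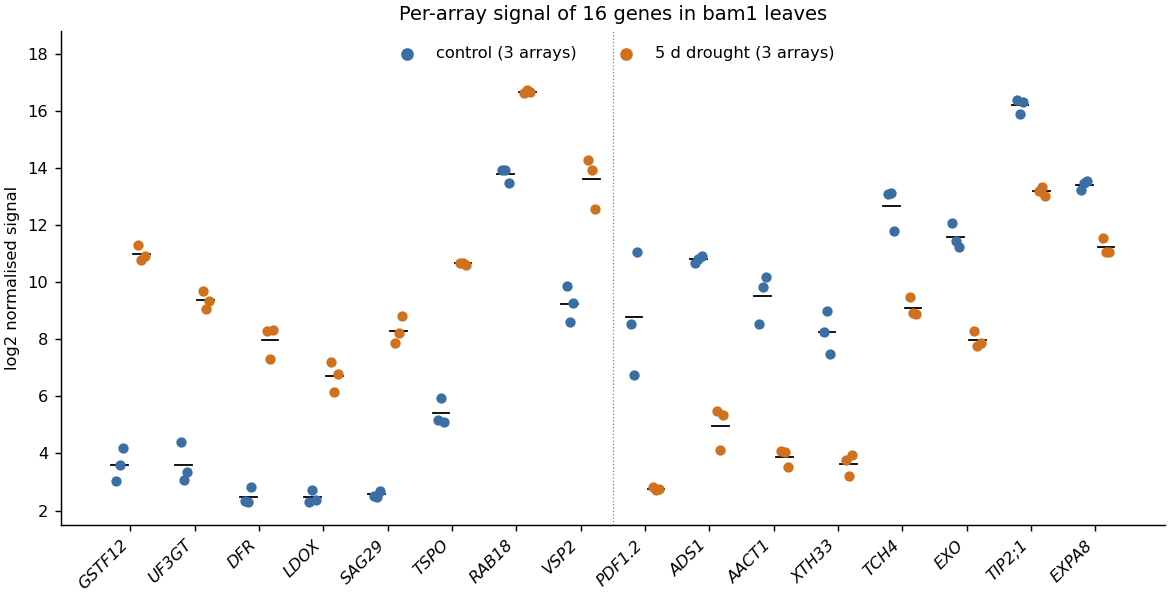
Log2 normalised signal (y axis) of 16 genes in each of the 3 control and 3 drought arrays of bam1 leaves, 1 point per array. GSTF12, UF3GT, DFR, LDOX, SAG29, TSPO, RAB18 and VSP2 are higher and PDF1.2, ADS1, AACT1, XTH33, TCH4, EXO, TIP2;1 and EXPA8 lower in all drought arrays than in any control array. The same lack of overlap holds for 1418 of the 1440 called features.

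Genes for protective proteins of dehydrated cells formed another group that rose. Of 23 dehydrins, LEA proteins and other drought proteins tested, 8 rose and none fell, with a median change of 0.80. TSPO, a stress-induced membrane protein, measured 5.16, 5.94 and 5.12 in control and 10.69, 10.69 and 10.61 in drought arrays (5.26 ± 0.29, adjusted p = 1.94e-05). LEA7 was at least 19-fold higher and was not well above background in any control array. RD29B, a classical target of ABA signalling, rose by 3.24 ± 0.27 from 9.36, 9.18 and 8.62 to 12.15, 12.43 and 12.31. The dehydrin RAB18 went from 13.94, 13.94 and 13.48 to 16.62, 16.73 and 16.68 (2.89 ± 0.26), and its 4 probes had changes of 0.76 to 3.28, of which 3 were called. The dehydrins LTI30 and XERO1 rose by 1.81 and 1.57, LEA14 by 1.21 and the lipid transfer protein LTP3 by 2.83. Among the members that were not called, RD29A measured 16.67, 15.11 and 16.51 in control and 16.97 to 17.25 in drought arrays (0.98 ± 0.39, adjusted p = 0.121), COR15A had a change of 0.51 and COR47 of -0.05.

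ABA signalling genes themselves changed in smaller numbers. Of 7 clade A protein phosphatases, which repress the pathway and are induced by it, HAI1 and HAI2 rose. HAI1 measured 8.01, 8.05 and 7.63 in control and 10.41, 10.33 and 10.44 in drought arrays (2.5 ± 0.18, adjusted p = 5.36e-05), and HAI2 rose by 2.03 ± 0.45. The core phosphatases ABI1 and ABI2 had changes of 0.20 and 0.13 and did not pass. Of 16 transcription factors, the homeobox factor HB7 (2.31 ± 0.20), the bZIP factor ABF3 (1.09 ± 0.13) and ABI5 (1.04) rose and none fell; the NAC factor RD26 had a change of -0.43 (adjusted p = 0.224). None of 10 SnRK2 kinases was called by limma, 4 of them having an unadjusted p under 0.05. Of 8 receptors tested, PYL5 fell (-1.13, adjusted p = 0.038), though it passed in 7 of 20 alternative settings only, and PYL4 had a change of -0.93, short of 2-fold.

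On the side of hormone supply, BG1, a beta-glucosidase that releases ABA from its glucose ester, measured 15.41, 15.87 and 15.24 in control and 17.31, 17.37 and 17.08 in drought arrays (1.74 ± 0.25, adjusted p = 0.00155). The ABA 8'-hydroxylase gene CYP707A2, which serves breakdown, rose by 1.52 ± 0.25. NCED3, the dioxygenase best known for ABA synthesis under drought, measured 9.43, 9.94 and 9.57 in control and 9.18, 8.86 and 9.14 in drought arrays, and its change of -0.59 did not pass (adjusted p = 0.133). NCED5 fell at least 5.49-fold (adjusted p = 0.0216), but was not well above background in any drought array. Its call was lost in several alternative settings, among them whenever any 1 of the 6 arrays was left out.

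Proline and raffinose family sugars are osmolytes that protect dehydrated cells. Both genes of the first step of proline synthesis rose, P5CS1 by 1.31 ± 0.16 (12.33, 12.73 and 12.20 in control, 13.90, 13.68 and 13.63 in drought arrays) and P5CS2 by 1.03 ± 0.15, while proline dehydrogenase PRODH1, which starts its breakdown, fell by 1.68 ± 0.21 (7.58, 7.81 and 7.44 against 6.14, 5.41 and 6.24). These were the 3 of 9 proline genes that passed, P5CS2 no longer without control replicate 1 or drought replicate 3. Of 5 galactinol and raffinose genes, RS2, of the raffinose synthase family, rose by 1.15 and galactinol synthase GOLS3 fell by 1.04; GOLS1 had a change of 0.99, just under 2-fold. In trehalose metabolism, whose intermediate trehalose 6-phosphate reports the sucrose status of the cell, 3 of 17 genes fell and none rose. The phosphatase genes TPPB and TPPA fell, TPPB by at least 4.80-fold and TPPA by 1.42 ± 0.17 on the log2 scale, and the synthase-like gene TPS11 fell by 1.36 ± 0.15. TPPG and TPPJ pointed the other way with changes of 0.89 and 0.81 that were short of 2-fold.

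Within carbohydrate metabolism, starch synthesis genes showed 3 increases among 18 tested and starch degradation genes 2 among 16, with no decrease in either list. Granule-bound starch synthase GBSS1, which makes amylose, measured 8.07, 8.33 and 8.14 in control and 9.93, 9.49 and 9.81 in drought arrays (1.56 ± 0.14, adjusted p = 1.38e-04). The ADP-glucose pyrophosphorylase large subunits APL3 and APL4 rose by 1.31 ± 0.15 and 1.25 ± 0.15, whereas the main leaf subunits APL1 and APS1 had changes of 0.15 and 0.25 and did not pass. Of the degradation genes, the alpha-amylase AMY1 rose by 1.87 ± 0.37 (6.94, 7.06 and 6.25 against 8.97, 7.77 and 9.11) and the phosphoglucan, water dikinase PWD by 1.03 ± 0.13, the latter not called without replicate 3 of either group. GWD1, SEX4, LSF1, ISA3, DPE2 and MEX1, which act in the phosphorylation, debranching and maltose steps of the same pathway, passed the adjusted p with changes of 0.44 to 0.81, short of 2-fold.

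None of the 8 beta-amylases tested was called by limma, 3 of them having an unadjusted p under 0.05, and their median change was -0.06. BAM3, the main beta-amylase of starch breakdown at night, measured 11.60, 11.52 and 11.40 in control and 12.05, 11.85 and 11.82 in drought arrays, a change of 0.40 ± 0.13 that did not pass (adjusted p = 0.0673). BAM6 had a change of 0.48 (adjusted p = 0.0365), short of 2-fold, and BAM2, BAM5, BAM7, BAM8 and BAM9 had changes between -0.54 and 0.09. BAM4 had no probe matched to it on the array and was not measured. The plot of carbohydrate genes shows these values with their standard errors.

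**Figure D3:**
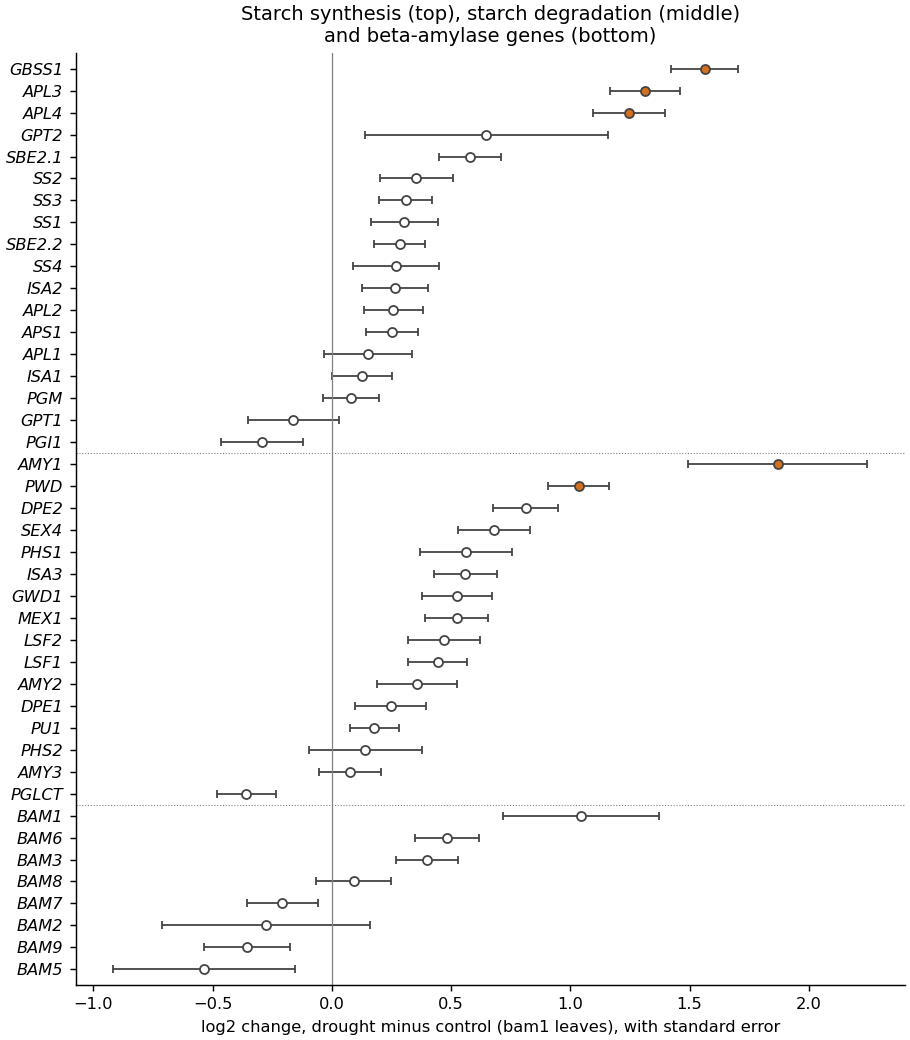
Log2 change between drought and control in bam1 leaves (x axis) with standard error bars for the genes of starch synthesis, starch degradation and the beta-amylases, 1 point per gene by its brightest probe. GBSS1, APL3, APL4, AMY1 and PWD pass the test at 2-fold, and no beta-amylase does.

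Sugar transport was marked by SAG29, also named SWEET15, a plasma membrane sucrose exporter known from senescing and osmotically stressed leaves. It measured 2.52, 2.49 and 2.7 in control and 7.87, 8.22 and 8.82 in drought arrays, at least 37.5-fold higher, and had the lowest adjusted p of all genes (1.29e-05). Of the 23 sugar transport genes tested, 3 fell, namely the vacuolar SWEET2 (9.32, 9.47 and 9.86 against 7.72, 7.29 and 7.58, -2.02 ± 0.21), SWEET16 (-1.19 ± 0.16) and the hexose symporter STP1 (-1.14 ± 0.14). The phloem loading genes SUC2, SWEET11 and SWEET12 had changes of 0.28, -0.08 and 0.45 and did not pass. Cell wall invertase CWINV1, which splits sucrose in the apoplast, fell by 2.44 ± 0.31 (8.34, 7.92 and 8.15 against 5.92, 5.45 and 5.71), and sucrose synthase SUS3 rose by 1.28 ± 0.16. No other of the 18 invertase and sucrose synthase genes passed.

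Aquaporins, the water channels of the membranes, changed downwards. Of 6 tonoplast aquaporins tested, 5 fell, with a list median of -2.05, and of 12 plasma membrane aquaporins 6 fell, with a list median of -1.13; none rose. TIP2;1 measured 16.40, 15.91 and 16.33 in control and 13.18, 13.35 and 13.03 in drought arrays (-3.03 ± 0.29, adjusted p = 1.89e-04). TIP1;1 went from 15.17, 14.77 and 15.04 to 12.46, 12.63 and 12.22 (-2.56 ± 0.23), and TIP1;2 and TIP2;2 fell (-1.55 and -1.06). All drought arrays lay below all control arrays for these 4 genes. Groups did not overlap for 1418 of the 1440 called features and for 37.4% of all tested probes with a value on every array. TIP3;1, otherwise known from seeds, fell at least 6.01-fold and was not well above background in any drought array. At the plasma membrane, PIP2;7 fell by 1.8 ± 0.23 and PIP2;3 by 1.73 ± 0.15, followed by PIP2;4, PIP1;5, PIP2A and PIP1C with changes of -1.32 to -1.13. PIP2B had a change of -1.13 as well, but with an adjusted p of 0.0777, and PIP1;4 one of -0.07. Sequences of aquaporins are similar to one another, and cross-hybridisation between members was not tested.

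Genes that loosen or remodel the cell wall during growth were frequent among the decreases. Of 21 xyloglucan endotransglucosylase (XTH) genes, enzymes that cut and rejoin xyloglucan, 10 fell and none rose (median -0.93). XTH33 measured 8.26, 9.0 and 7.49 in control arrays and was not well above background in any drought array, at least 24.4-fold lower (adjusted p = 7.99e-05). TCH4 went from 13.10, 13.12 and 11.81 to 9.49, 8.92 and 8.88 (-3.58 ± 0.72, adjusted p = 0.00878), XTH18 fell by 2.81, XTH9 by 2.74, XTH8 by 2.45 and XTH4 by 1.84. Of 18 expansins, which loosen walls without cutting them, 7 fell and EXLB1 alone rose (1.27 ± 0.15). EXPA8 measured 13.24, 13.47 and 13.54 in control and 11.54, 11.06 and 11.08 in drought arrays (-2.19 ± 0.20), and the expansin-like genes EXLA1, EXLA2 and EXLA3 fell, with changes of -1.98, -2.43 and -2.15.

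Arabinogalactan proteins, glycoproteins of the cell surface, fell in 15 of 36 genes and rose in none (median -0.85). AGP21 measured 13.71, 13.55 and 14.33 in control and 11.49, 11.67 and 11.78 in drought arrays (-2.22 ± 0.23), and AGP7 and the fasciclin-like FLA2 fell (-2.88 and -2.05). Where 3.95% of all genes were called lower, 0 of 23 genes of cellulose and other wall polysaccharide synthesis were called by limma, 4 of them having an unadjusted p under 0.05, with a median of -0.17. EXO and PHI-1, related proteins of the exordium family tied to growth, stood among the 10 strongest decreases, EXO with 12.08, 11.46 and 11.25 in control and 8.28, 7.78 and 7.89 in drought arrays (adjusted p = 3.3e-04) and PHI-1 with 10.04, 11.17 and 8.94 against 6.50, 4.98 and 5.45 (-4.41 ± 1.01, adjusted p = 0.0164). The call of PHI-1 was lost without control replicate 2 (-3.85) and without drought replicate 2 (-4.08) or 3 (-4.31).

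**Figure D4:**
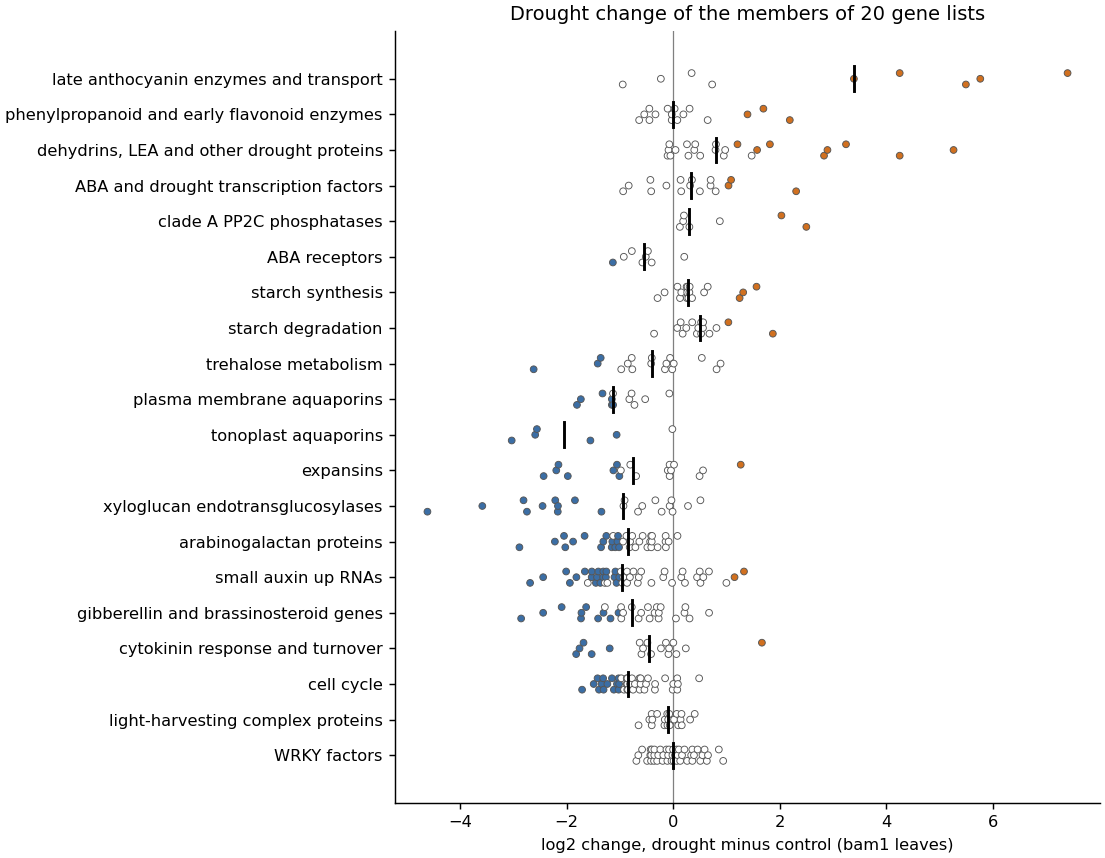
Log2 change between drought and control in bam1 leaves (x axis) of the tested members of 20 gene lists (rows), 1 point per gene by its brightest probe. Filled points passed the test at 2-fold, open points did not, and black bars are list medians. Late anthocyanin genes reach the highest changes, and aquaporins, XTH genes, arabinogalactan proteins, small auxin up RNAs and cell cycle genes lie mostly below 0.

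Growth hormone genes followed the same direction as the wall genes. Small auxin up RNAs (SAURs), early auxin-induced genes of expansion growth, fell in 20 of 48 tested genes and rose in 2 (median -0.97). AT4G34790, a SAUR, measured 9.56, 9.88 and 10.53 in control and 7.64, 7.32 and 6.96 in drought arrays (-2.68 ± 0.32), and AT4G34770 fell by 2.44 and SAUR27 by 1.94. AT1G16510 and AT3G61900 were the members that rose (1.33 and 1.15). Of 22 auxin response genes, the repressors IAA6, IAA19 and AXR3 fell, IAA6 from 10.42, 9.86 and 10.19 to 7.34, 7.22 and 6.76 (-3.05 ± 0.25, adjusted p = 1.04e-04). In auxin conjugation, synthesis and transport, GH3.17, GH3.6 and YUC8 fell, with changes of -2.43, -1.06 and -1.36, and none of 19 genes rose.

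Of 29 gibberellin and brassinosteroid genes, 10 fell and none rose. They included GA2OX2, which inactivates gibberellin (-2.85 ± 0.36), the gibberellin-responsive GASA1 (12.83, 14.17 and 13.80 against 11.10, 11.20 and 11.18, -2.44 ± 0.33), the brassinosteroid synthesis gene BR6OX2 (-1.72 ± 0.14) and the brassinosteroid-responsive bHLH gene BEE3 (-2.09 ± 0.26). Genes of synthesis, inactivation and response therefore stood side by side among the members that fell. Of 18 cytokinin genes, the oxidases CKX4 and CKX6, which degrade the hormone, fell (-1.82 and -1.68), and the response regulators ARR15, ARR16 and ARR5 fell, with changes of -1.76, -1.53 and -1.19. The synthesis gene IPT7 rose by 1.66 ± 0.21. Among 42 cell cycle genes, 14 fell and none rose (median -0.85). They included the replication genes CDC6 (7.84, 7.66 and 7.70 against 6.37, 5.92 and 6.44, -1.49 ± 0.16) and PCNA1 (-1.42 ± 0.17) and the cytokinesis syntaxin KNOLLE (-1.34 ± 0.16). The mitotic genes CDKB2;2 and CYCB1;1 fell at least 3.27-fold and 2.47-fold, to signals not well above background.

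The list of 25 tested jasmonate genes held 2 large increases and no other call. The vegetative storage proteins VSP1 and VSP2, marker transcripts of the MYC branch of jasmonate signalling, measured 10.69, 9.62 and 10.02 (VSP1) and 9.85, 8.61 and 9.28 (VSP2) in control arrays. In the drought arrays VSP1 reached 14.47, 14.61 and 13.38 (4.04 ± 0.34, adjusted p = 1.1e-04) and VSP2 14.29, 13.95 and 12.58 (4.36 ± 0.48, adjusted p = 3.86e-04). Drought replicate 3 was the lowest of its group for both genes and still above all control arrays. The 4 probes of VSP1 gave changes of 1.88 to 4.04 and both of VSP2 changes of 4.36 and 4.62, all called. None of the other 23 genes of this list passed, with LOX2, AOS and OPR3 of the synthesis pathway at changes of 0.53, 0.34 and 0.24 and JAZ10 at -0.80. Outside this list, the coronatine-induced gene CORI3 rose by 1.29. All 3 of its probes were called (1.29 to 1.47), and its call held in 18 of 20 alternative settings. LOX2 lacks a value on control replicate 1, where the spot was an outlier.

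Several markers of the ethylene-dependent branch of defence fell, and the basic chitinase PR3 of the same branch rose (1.1 ± 0.33, adjusted p = 0.0475, called in 7 of 20 alternative settings). The plant defensin PDF1.2 measured 8.53, 6.76 and 11.06 in control arrays, a wide spread, and 2.81, 2.7 and 2.76 in drought arrays. No drought signal was well above background, and PDF1.2 fell at least 48.7-fold (adjusted p = 0.0202). Its call was lost when drought replicate 1, 2 or 3 (adjusted p of 0.0582 to 0.0601) or control replicate 3 (adjusted p = 0.073) was left out. PR4, a hevein-like protein, went from 11.98, 12.59 and 13.21 to 9.60, 8.80 and 8.70 (-3.56 ± 0.48, adjusted p = 0.00107), and ORA59, the transcription factor of this branch, from 8.02, 8.51 and 8.97 to 5.63, 5.65 and 6.39 (-2.61 ± 0.27). AACT1, an acyltransferase of defence-related hydroxycinnamic acid amides, measured 8.55, 9.84 and 10.18 in control arrays. It was not well above background in any drought array, at least 45.1-fold lower (adjusted p = 2.68e-04). The ethylene synthesis genes ACS11 (at least 7.35-fold) and ACS4 fell, while ERF2 rose by 1.5. The salicylate markers PR2 and PR5 had changes of 0.50 and -0.64 and were not called. In all, 4 of 20 defence protein genes fell and 2 rose, and 4 of 22 ethylene genes fell and 1 rose.

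Surface lipids changed in both directions. Of 28 wax and cutin genes, 5 rose and 4 fell. With the slide as a fixed block only 2 of these 9 calls were kept, and also 2 with the stomatal array left out. SHN3, an AP2 factor that activates cutin and wax genes, measured 6.01, 6.11 and 5.74 in control and 9.26, 9.38 and 9.29 in drought arrays (3.35 ± 0.21, adjusted p = 3.35e-05), and its relative SHN2 rose by 1.29. The alkane synthesis gene CER1 (1.16 ± 0.26), the wax ester synthase WSD1 (1.13 ± 0.23) and the elongase KCS2 (1.39 ± 0.24) rose, while the alcohol-forming reductase CER4 (-1.63 ± 0.19), the elongase KCS1, CYP86A8 and BDG fell. ADS1, a desaturase-like gene, was the sole called member of 11 desaturases and was among the strongest decreases, with 10.69, 10.81 and 10.91 in control and 5.48, 4.11 and 5.35 in drought arrays (-5.83 ± 0.62, adjusted p = 3.32e-04). Of the 3 drought arrays, 2 showed ADS1, XTH18, GH3.17, YUC8 and SWEET16 well above background, and 1 showed GA2OX2 and SAUR27.

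Further lists are given as counts, beside shares over all genes of 1.65% higher and 3.95% lower, and a count of 0 or 1 call is not read as a result. None of 21 light-harvesting complex genes and 46 WRKY factors was called by limma (medians -0.09 and -0.01), and 3 and 14 of them had an unadjusted p under 0.05. The same held for the 10 mesophyll and 11 guard cell markers, of which 3 and 6 had an unadjusted p under 0.05. The 1 call among 36 photosystem and Calvin cycle genes was PSBO1, for which control replicate 1 and drought replicate 3 were without a value and the other 2 probes gave changes of -0.25 and 0.08. In the senescence list of 22 genes, the dark-induced asparagine synthetase DIN6 rose by 1.12 and DIN10 fell by 2.45 (12.55, 12.42 and 11.93 against 10.13, 9.78 and 9.65). Among 18 heat shock genes HSP70 rose by 2.42 ± 0.26 and the heat shock factors HSFA3 and HSFA7A fell, and of 13 CBF and cold genes CBF2, RCI2B and RAV1 fell. The sulfur-starvation genes SDI1, LSU1 and LSU3 rose by 1.12 to 1.21 within a list of 25 phosphate and sulfate genes (4 higher, 1 lower). With the slide as a fixed block 1 of these 5 calls was kept, and 0 with the stomatal array left out. In glucosinolate synthesis CYP79F1 of the aliphatic branch rose by 1.06 and CYP81F2 of the indole branch fell by 1.95, the only calls among 19 and 14 genes.

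The remaining lists held few calls. Of 28 glutathione S-transferases 4 fell, namely GSTF3, GSTF6, GSTF7 and GSTU28 with changes of -1.24 to -1.07, and GSTF12 alone rose. Iron and copper genes showed 2 increases (the ferritin FER1 and the transporter YSL2) and 2 decreases (the copper superoxide dismutases CSD1 and CSD2) among 34. Of 28 antioxidant genes GPX7 and ALDH7B4 rose, of 25 nitrate genes the transporter NRT1.1 and glutamine synthetase GLN1;4 fell, and of 27 clock genes RVE1 fell. Over all lists, 1016 genes were tested, 61 rose and 142 fell. Of the genes called, 59 had more than 1 probe, all of them were called for 46 of these genes, and only PSBO1 had probes of opposite sign.

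Further genes stood among the 10 strongest in either direction outside the lists. NUDT24, a nudix hydrolase, measured 3.70, 4.72 and 2.57 in control and 8.83, 8.97 and 8.90 in drought arrays (5.24 ± 0.48), and HIPP22, of the heavy-metal-associated protein family, 5.10, 5.41 and 4.12 against 9.68, 9.39 and 9.44 (4.62 ± 0.40); each was above background in 1 of the 3 control arrays. The cytochrome P450 gene CYP71B22 was at least 8.01-fold lower (adjusted p = 9.2e-04). MGL, methionine gamma-lyase, had one of the 5 lowest adjusted p values (2.94e-05) with 10.01, 9.86 and 10.01 in control and 13.05, 13.07 and 13.18 in drought arrays (3.14 ± 0.19).

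The drought changes of bam1 leaves were then set beside those of Col-0 leaves, which have their own control arrays. In Col-0, 1674 of 28279 probes were called (5.92%), 651 higher and 1023 lower. Both genotypes shared 881 called probes, which are 61.2% of the bam1 calls and 52.6% of the Col-0 calls, and 879 of these ran in the same direction (300 higher and 579 lower). Of the 1440 bam1 features, 1385 were tested in Col-0, where 1340 had the same sign. Across 27748 probes tested in both, the changes correlated at r = 0.651, a description across probes, which are not independent. Individual genes moved to a like extent, such as TSPO with changes of 5.26 in bam1 and 5.53 in Col-0, VSP2 with 4.36 and 4.11, PAP1 with 2.53 and 2.37, TIP1;1 with -2.56 and -2.66 and ADS1 with -5.83 and -5.54.

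The difference between the genotypes in the drought change was tested directly with an interaction contrast over 28715 probes, and 6 probes were called (0.0209%), all lower in bam1. At an unadjusted p under 0.05 there were 3848. Both called probes of AT3G19680, a locus without a gene symbol in the name table, differed by -2.75 ± 0.19 (adjusted p = 0.00167) and -2.44 ± 0.29 (adjusted p = 0.0358). The first measured 9.39, 9.51 and 9.18 in bam1 control, 7.67, 7.59 and 7.51 in bam1 drought, 6.37, 6.07 and 6.41 in Col-0 control and 7.27 and 7.25 in Col-0 drought arrays. The level of bam1 control leaves thus lay above all other leaf groups, and the 2 genotypes came close to each other under drought.

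AT5G25240 had the same order of groups, with 10.96, 10.87 and 10.62 in bam1 control, 9.62, 9.48 and 9.33 in bam1 drought, 8.31, 8.24 and 8.59 in Col-0 control and 8.97 and 9.33 in Col-0 drought arrays (difference of -2.1 ± 0.23, adjusted p = 0.0208). AT2G41330 measured 10.68, 10.50 and 10.33 in bam1 control, 9.46, 9.37 and 9.39 in bam1 drought, 8.72, 8.56 and 8.61 in Col-0 control and 9.23 and 9.28 in Col-0 drought arrays (-1.72 ± 0.17, adjusted p = 0.0185). AT3G43840 was of another kind, as it was not well above background on any bam1 array or any Col-0 control array. It measured 5.41 and 6.45 in the Col-0 drought arrays (adjusted p = 0.0208), so that the size of its difference is not determined.

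**Figure D5:**
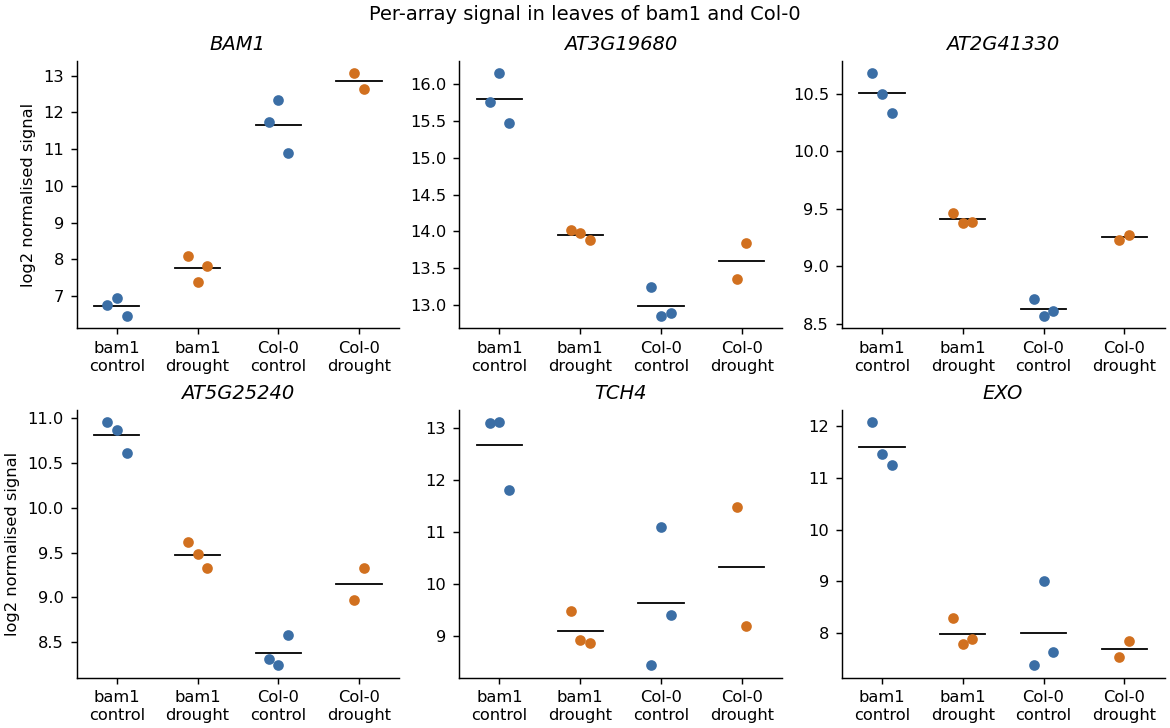
Log2 normalised signal (y axes) per array in bam1 control (3), bam1 drought (3), Col-0 control (3) and Col-0 drought (2) leaves, 1 panel per gene and 1 point per array. AT3G19680 (its brightest probe), AT5G25240 and AT2G41330 are highest in bam1 control leaves, BAM1 is lower in all bam1 arrays than in any Col-0 array, and horizontal lines mark group means.

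Several wall genes had large but uncalled differences between the genotypes. EXLA2 measured 9.83, 9.20 and 9.37 in bam1 control and 7.0, 6.92 and 7.2 in bam1 drought arrays, while its change in Col-0 was -0.42 (unadjusted p of the difference 1.95e-05, adjusted 0.0701). The change of EXLA1 in Col-0 was -0.35 and that of EXLA3 -0.37, where the adjusted p of the EXLA1 difference was 0.21. TCH4 measured 8.44, 11.10 and 9.41 in Col-0 control and 11.48 and 9.19 in Col-0 drought arrays, a change of 0.69 against -3.58 in bam1 (adjusted p of the difference 0.272). EXO measured 7.36, 9.01 and 7.62 in Col-0 control and 7.52 and 7.83 in Col-0 drought arrays, so that its bam1 drought level of 7.78 to 8.28 lay within the range of Col-0 leaves (adjusted p of the difference 0.153). PHI-1, at 5.30, 8.76 and 6.31 in Col-0 control arrays and 9.37 and 6.16 under drought, had a difference with an adjusted p of 0.289. A call in one genotype and none in the other was thus not matched by a called difference for these genes. Among ABA genes, the change of HAI1 was 3.72 in Col-0 and that of LTI30 2.99, compared with 2.5 and 1.81 in bam1, and the differences (unadjusted p = 8.76e-04 and 0.00334) were not called.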

How the data were processed

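Whole leaf RNA was hybridised to one-colour Agilent arrays of 43603 probes. The deposited scanner files hold intensity values, which per the file headers were background-subtracted and detrended by Feature Extraction 11.5.1.1, with other columns of flags for outlier spots, saturation (0 spots) and spots well above background. The deposited log2 values of the series matrix were normalised by quantiles and centred on each probe's median by the authors in GeneSpring GX 12.6.1, and served as an alternative. No data column was left without a sample (0).

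Outlier spots were set to missing, and log2 processed signals were quantile-normalised over all 20 arrays. Between 64.6% and 68.6% of the spots on the 6 bam1 leaf arrays were flagged as well above background, and the number of arrays limits the precision. Probes were matched by accession to a RefSeq table of TAIR10.1 (34348 probes, 78.8%). The brightest probe stood for a gene. Group means of the 11 leaf arrays were fitted with limma 3.58.1 in R 4.3.3 (lmFit, eBayes; 7 residual and 3.03 prior degrees of freedom), two-sided, with Benjamini-Hochberg adjustment over all probes tested. The test replaced the t-test of the study's methods, which was run as an alternative (equal variances, at least 2-fold). In a simulation on 28214 probes with 200 changed, 97% of the changes of 2.5 and 84% of those of 1.5 (log2) were recovered, with 1 false call. The simulated noise was independent between probes and held no slide effect, so it gives no rate of false calls for these arrays.

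The genes named are the 10 highest and 10 lowest called genes whose groups do not overlap, the 5 of lowest adjusted p, members of 54 gene and marker lists, and features that differ between genotypes. These arrays and lists were chosen with earlier results of the same data known. Each replicate is a pool of plants, and the p-values measure the spread between pools. Alternatives were another scaling, quantiles over the leaf arrays, normexp with an offset of 50 on the median signal (used in place of the mean signal), the authors' values, no filter on dim probes, outliers kept, other sets of groups, slide as a random or fixed block, a replicate block, and each array left out. Figures were drawn with matplotlib 3.10.9.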

Additional observations from a re-analysis of the deposited data

Results flagged for a closer look

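The test of the difference between the drought change in bam1 leaves and that in Col-0 leaves singled out 6 probes. In all of them the change was lower in bam1, and each value below is the bam1 change minus the Col-0 change on the log2 scale. Of the 3 probes of AT3G19680, 2 were called and gave -2.75 and -2.44, AT2G41330 gave -1.72 and AT5G25240 gave -2.1, and for these loci bam1 control leaves had the highest level of the 4 leaf groups. AT3G43840 gave -3.65, a fitted value that rests on signals not well above background in all leaf groups but Col-0 drought and is no bound. The probe A_84_P770280, which has no match in the name table, gave -2.73, with 5.54, 5.38 and 5.70 in bam1 control, 4.34, 3.53 and 4.08 in bam1 drought, 5.03, 4.82 and 5.12 in Col-0 control and 6.21 and 6.10 in Col-0 drought arrays. With the slide as a fixed block, none of the 6 probes was called by limma.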

How the results depend on the processing

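Of 1440 features called in bam1 leaves, normexp background correction left 765 (258 higher and 507 lower), the methods' t-test after Benjamini-Hochberg adjustment 748 (240 and 508), and the slide as a fixed block 955 (647 lower) or, in a setting chosen after seeing the data that leaves out 1 stomatal array, 954 (551 lower, with 42.2% of the calls upward against 30.0%). Of 765 and 748 calls, 728 and 742 were among the 1440. In Col-0 leaves, normexp gave 923 calls and the adjusted t-test 15. The cause of these shifts was not tested. The unadjusted t-test of the methods called 1468 features in bam1.

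Leaving out 1 array gave 1283 to 1502 calls in bam1, 409 to 499 higher and 858 to 1003 lower, and 1328 to 1801 in Col-0. The 6 differences between genotypes became 11 with normexp, 3 with all 8 groups in the fit, 2 with the replicate block and 0 with the slide as a fixed block in either form, where 4137 and 4693 probes had an unadjusted p under 0.05 in limma. Single arrays moved this count between 2 and 160, namely 160 without Col-0 drought replicate 1, 71 without Col-0 drought replicate 2, 17 and 2 without bam1 drought replicates 3 and 2, 14 and 10 without bam1 control replicates 1 and 3, and 3 without Col-0 control replicate 1.

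The change of BAM1 in bam1 leaves (1.04) passed with 75th-percentile scaling (1.15), the authors' values (1.06), outliers kept (1.06), only the 2 groups fitted (1.04), the slide as a random block (1.17) and the unadjusted t-test (1.04). It turned to -0.81 with the slide as a fixed block, was 1.59 with the stomatal array left out, and ranged from 0.88 to 1.23 without single arrays. The replicate numbers did not pair the arrays (correlations of same-numbered deviations -0.091, -0.143 and 0.015), and the replicate block called 1403 features in bam1 and 1596 in Col-0 and left BAM1 at 1.04 (adjusted p = 0.0642). Of the strongest named genes, 397 values under alternatives kept direction and call and 23 kept direction only. Leaving out 1 array or more, each in turn, also ended the calls of ABI5, LEA14, GOLS3, TIP2;2, PIP2A, AXR3, GH3.6, ARR5, ACS4, CYCB1;1, CER1, SHN2, BDG, CBF2, HSFA7A, RVE1, NRT1.1, GPX7, SDI1, LSU1, DIN6, GSTF3, GSTU28 and AT3G61900. Probes near background limit what can be called.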

Other observations

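Large changes in bam1 leaves also occurred outside the gene lists; the following genes were chosen after their values were seen. Among transcripts that rose, HIS1-3, a linker histone variant induced by drought, measured 11.79, 12.46 and 12.01 in control and 14.31, 14.33 and 14.11 in drought arrays (2.17 ± 0.21, limma adjusted p = 2.19e-04). AFP1, which binds the ABA factor ABI5, rose by 1.62 ± 0.16, with a change of 2.94 in Col-0 leaves. The difference of AFP1 between the genotypes was not called (limma unadjusted p = 2.14e-04). The bZIP gene GBF3, the NF-Y subunit gene NF-YA5 and the late embryogenesis gene LEA4-5 rose by 1.90, 1.79 and 2.87. BFT, a relative of the flowering regulators FT and TFL1, went from 6.63, 7.43 and 6.85 to 10.07, 10.33 and 10.08 (3.19 ± 0.21), with 3.08 in Col-0. The heat shock factor HSFA6A rose by 3.23 ± 0.25 and the inositol transporter INT2 by 3.12 ± 0.35, each well above background on 1 of 3 control arrays. The myrosinase-binding proteins MBP1 and MBP2 rose by 2.3 and 2.04.

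Among transcripts that fell, DREB26, an AP2 factor, measured 8.64, 9.56 and 7.97 in control and 5.69, 4.58 and 5.45 in drought arrays (-3.48 ± 0.47). The pectin methylesterase PME2 fell by 2.67 ± 0.54, the elongase gene KCS12 by 2.37 ± 0.16 and the methionine sulfoxide reductase MSRB6 by 2.54 ± 0.25. BASL, which marks polarity in stomatal lineage cells, fell at least 2.84-fold, from 5.28, 4.94 and 5.69, and was not well above background on any drought array. MYB77, a MYB factor of auxin responses, fell by 1.92 ± 0.17 in bam1 and had a change of -0.21 in Col-0. The difference of MYB77 between the genotypes was not called (limma adjusted p = 0.118). ECIP1 ran the other way in the 2 genotypes, at 8.15 and 7.01 in bam1 control (control replicate 1 without a value) and 9.88, 10.21 and 9.98 in bam1 drought arrays, against 10.59, 10.86 and 10.86 in Col-0 control and 10.37 and 9.09 in Col-0 drought arrays; the difference was not called (adjusted p = 0.145).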
